A study of Mus musculus with 12 samples.

Results

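Transcripts of 9 genes of the vascular endothelial growth factor (VEGF) family were measured in the cerebellum of mice that carry an expanded Atxn1 allele. The genes were chosen by name from 55401 gene identifiers in the count tables: 4 ligands (Vegfa, Vegfb, Vegfc and Pgf), 3 receptor tyrosine kinases (Flt1, Kdr and Flt4) and 2 neuropilin co-receptors (Nrp1 and Nrp2). All 9 matched an identifier and passed the filter on low counts, in which 19378 genes were kept. Lower VEGFA has been reported in mice with spinocerebellar ataxia type 1 (SCA1), and the question here was whether these genes differed between the groups. The measure, age and tissue of that report are not given in the sources used here, and only RNA was measured in these mice.

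Each of 3 groups held 4 mice, with 1 RNA sequencing library per mouse. WT DMSO mice were wild type and were injected with the vehicle, dimethyl sulfoxide. Het DMSO mice were heterozygous Atxn1 154Q/2Q knock-ins (154 glutamine codons in 1 allele and 2 in the other) and received the same vehicle. Het Hit 2 mice had that genotype and received Hit 2, a compound of a study on lowering RNAs with expanded CAG repeats, at 25 mg/ml in DMSO. All mice shared the schedule of intraperitoneal injection, which began at 18 weeks of age and ran for 5 days, stopped for 2 and ran for 5 more, with less than 4 ml/kg of DMSO. All were killed under urethane at 20 weeks and perfused with saline before the cerebellum was taken. No wild-type mice given Hit 2 were analysed here, so an effect of the compound without the expanded allele was not measured. The knock-in allele is present in every cell of the mouse, and whole cerebellum was sequenced. Libraries are named by animal number.

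VEGFA is secreted by neurons and glia as well as by other cells, and acts mainly on endothelial cells through the receptor VEGFR2, the product of Kdr. VEGFR1, the product of Flt1, binds VEGFA, VEGFB and placental growth factor (Pgf) and also exists as a soluble form that holds ligand away from VEGFR2. VEGFC acts through VEGFR3, the product of Flt4, which is best known from lymphatic vessels, while neuropilins bind both VEGFs and semaphorins and serve neurons as well as vessels.

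Reads assigned to genes ranged from 15855751 to 45265719 per library. Summed markers of granule cells were 378 CPM (reads of a gene per 1000000 gene reads, after scaling of the libraries) in Het DMSO library 411 and 4894 to 10668 CPM in the other 11 libraries. A list of genes from tissue outside the cerebellum summed to 395 CPM in library 411 and 131 CPM in Het Hit 2 library 410, against 8.21 to 65.8 CPM elsewhere, and both libraries also had the highest oligodendrocyte markers (6797 and 5622 CPM, others 1338 to 3510 CPM). Mitochondrial transcripts took 0.0795% of gene reads in Het DMSO library 409 and 1.85% to 2.81% in the others. Purkinje cell markers summed to 8318 to 8654 CPM in WT DMSO and 820 to 7631 CPM over the Het libraries, and Bergmann glia and astrocyte markers to 3821 to 4240 CPM and 2863 to 3411 CPM. Xist was high in WT libraries 425 and 426 only (1393 and 1464 CPM), so both sexes occurred in WT DMSO alone. In bulk tissue, fewer cells of a type and less RNA per cell cannot be told apart.

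No member passed the threshold in any comparison. In Het DMSO against WT DMSO, 0 of 9 members had an adjusted p under 0.05 (edgeR quasi-likelihood test, Benjamini-Hochberg over all genes), against 0.00516% of all genes tested. In Het Hit 2 against Het DMSO it was 0 of 9, against 0% of all genes, and in Het Hit 2 against WT DMSO 0 of 9, against 0.00516%. A test for any difference among the 3 groups called 0 of 9, against 0.00516% of all genes, with members' adjusted p from 0.977 to 0.997. At an unadjusted p under 0.05 there were 1, 0 and 0 members in the 3 comparisons, where 7.11%, 1.55% and 1.71% of all genes were under it. In the first and second comparison 0 of 9 members had groups that did not overlap, against 4.39% and 1.03% of all genes. DESeq2, and limma with a quality weight per library, also called 0 members in every comparison, while over all genes DESeq2 called 39, 0 and 23 and limma 98, 0 and 221. Fitted values were higher in Het DMSO than in WT DMSO for 8 of 9 members, where 55.8% of all genes were higher. With Hit 2 the fitted values were higher than in Het DMSO for 2 of 9 members (44.3% of all genes) and higher than in WT DMSO for 9 of 9 (55.7%). The members' median log2 fold changes were 0.22, -0.14 and 0.11, beside 0.05, -0.04 and 0.02 for all genes. Without library 411 they were 0.086, 0.0039 and 0.097, with 7, 5 and 8 of 9 members higher. The medians of all genes were then 0.0070, -0.00081 and 0.0084, with 50.7%, 49.9% and 52.3% of genes higher.

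**Figure D1:**
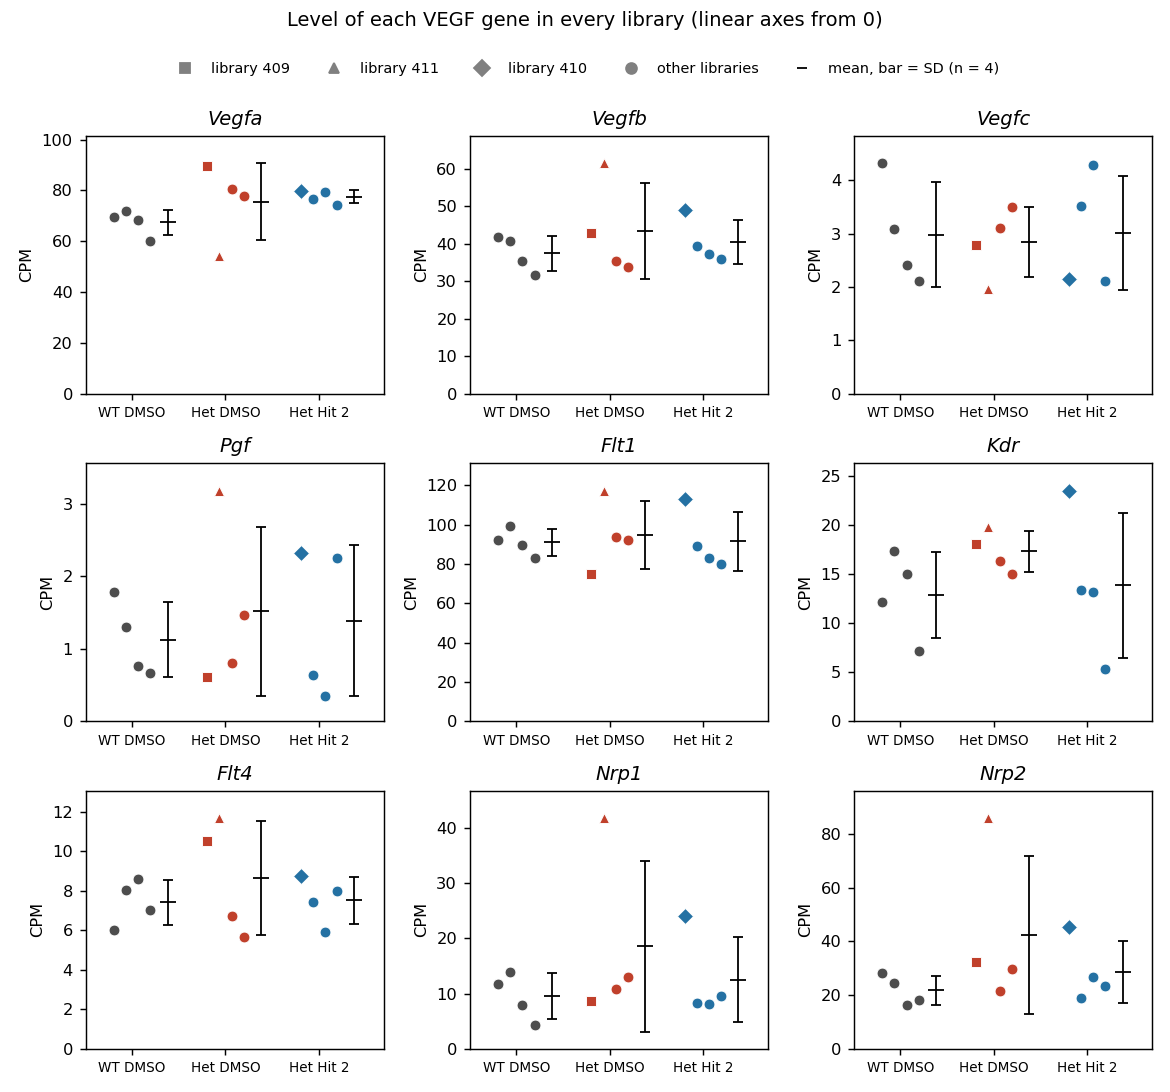
Level of each of the 9 genes in every library, in CPM on the vertical axis of each panel, with groups on the horizontal axis, 1 point per library and the group mean with its SD as a line and bar. Vegfa in all 4 Het Hit 2 libraries (74.3 to 79.6 CPM) lies above all WT DMSO libraries (60.2 to 71.9 CPM), while the highest Nrp1 and Nrp2 points are library 411 followed by library 410.

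Vegfa, the main ligand of blood vessel growth, had a higher mean in both Het groups than in WT DMSO, by a difference that did not pass the test. It stood at 69.4, 71.9, 68.3 and 60.2 CPM in WT DMSO libraries 413, 425, 426 and 431. The Het DMSO libraries 409, 411, 420 and 429 had 89.7, 54.1, 80.5 and 77.8 CPM. In Het Hit 2 libraries 410, 421, 422 and 430 the values were 79.6, 76.8, 79.3 and 74.3 CPM. Library 411 was the lowest of all 12 and library 409 the highest, and both belong to Het DMSO. The other 6 Het libraries lay within a narrow band above every WT library.

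In WT DMSO the mean level of Vegfa was 67.5 ± 5.05 CPM, in Het DMSO 75.5 ± 15.2 CPM and in Het Hit 2 77.5 ± 2.51 CPM (each SD, n = 4). Het DMSO against WT DMSO gave a log2 fold change of 0.16 (SE 0.14, adjusted p 0.661 in edgeR, two-sided exact permutation p 0.429). Its 95% interval ran from 0.906-fold to 1.38-fold, so a fall to below that lower bound lay outside it. Leaving out library 409 gave 0.065 and leaving out library 431 gave 0.086. Without library 411 the value was 0.31 (95% interval 0.09 to 0.54, edgeR adjusted p 0.620) and without libraries 409 and 411 it was 0.22 (0.06 to 0.38, edgeR adjusted p 0.590). Both intervals lie above 0, and neither adjusted p passed the threshold.

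For the compound, Het Hit 2 against Het DMSO gave a log2 fold change of 0.04 in Vegfa (SE 0.14, adjusted p 0.953 in edgeR, two-sided exact permutation p 0.914), with a 95% interval from 0.830-fold to 1.27-fold. Its sign turned without library 411 (-0.12) and without libraries 409 and 411 (-0.03). Relative to WT DMSO, Het Hit 2 gave 0.20 (SE 0.14, adjusted p 1.000 in edgeR), with an interval from 0.930-fold to 1.42-fold. All 4 Het Hit 2 libraries were above all 4 WT libraries, and the exact two-sided permutation p of 0.0286 is the smallest that 70 assignments allow. Vegfa was the only member whose groups did not overlap in that comparison, where 6.32% of all genes tested did not overlap and 2.9% were higher without overlap. Without the WT libraries 425 and 426, which had high Xist, the value was 0.26.

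Both Het groups were also set together against WT DMSO, a comparison chosen after the values were seen. The log2 fold change of Vegfa was 0.18 (edgeR adjusted p 0.935), and 7 of 8 Het libraries were above all WT libraries, library 411 being the exception. In that comparison 0.0516% of all genes passed the threshold and 0.619% were higher without overlap. Without library 411, where 7 of 7 were above, it was 0.24 (edgeR adjusted p 0.881), while 0.119% of all genes passed and 0.816% were higher without overlap. Without libraries 409 and 411 it was 0.21 (SE 0.05, p 0.00196 unadjusted and 0.107 adjusted in edgeR), with 6 of 6 above, while 0.954% of all genes passed and 1.26% were higher without overlap. The adjusted p stayed above 0.05 in each of these fits. Purkinje cell and Bergmann glia markers were lower in all 8 Het libraries than in all WT libraries, and their part in the values of Vegfa was not tested.

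The promoter of Vegfa is shown because the report of lower VEGFA was the reason for choosing these genes. Its 250 bases upstream of the first start lie at chr17:46032378-46032627 on the minus strand (RefSeq, GRCm38.p6) and are written 5′ to 3′ with each GGGCGG, the core of a GC box bound by SP factors, in capitals.
Vegfa: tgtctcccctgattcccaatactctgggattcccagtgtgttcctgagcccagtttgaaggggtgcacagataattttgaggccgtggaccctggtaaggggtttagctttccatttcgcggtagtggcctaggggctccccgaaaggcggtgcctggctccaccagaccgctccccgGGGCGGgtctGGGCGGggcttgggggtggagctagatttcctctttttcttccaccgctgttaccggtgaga
The members had 11 such promoters, since Vegfa and Pgf have a pair each. GGGCGG, searched on both strands, was in 10 of the 11 and in 32.7% of 32851 promoters of that length; the exception was the second of Pgf. ACGTG, a core of the sites that hypoxia-inducible factors (HIF) bind, was in 1 of the 11, at a second start of Vegfa, and in 16.6% of all promoters. GCGTG, the other core, was in 7 of the 11 and in 28.2% of all. The window of the second Vegfa start, chr17:46025164-46025413 on the minus strand, held both cores. It lies downstream of the first start, so transcripts from the first start can run through it, and its matches may be coding sequence. Whether any match acts as a site was not tested, and sequence beyond the 250 bases was not searched.

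Vegfb, a ligand of VEGFR1, had means of 37.4 ± 4.74, 43.4 ± 12.7 and 40.4 ± 5.92 CPM (each SD, n = 4) in WT DMSO, Het DMSO and Het Hit 2. Its highest values were 61.5 CPM in library 411 and 49.0 CPM in library 410, and without library 411 the Het DMSO mean was 37.3 CPM and the log2 difference from WT DMSO was 0.017. With all libraries the fitted log2 difference between Het DMSO and WT DMSO was 0.21, that of Het Hit 2 was -0.10 from Het DMSO and 0.11 from WT DMSO. Without libraries 409 and 411 the first turned to -0.13 and the second to 0.22, and with limma and quality weights to -0.10 and 0.15. Without library 411 alone the second was 0.079. Vegfc, the ligand of VEGFR3, was near 3 CPM in every group (2.98 ± 0.983, 2.84 ± 0.652 and 3.01 ± 1.07 CPM, SD, n = 4), with libraries from 1.97 to 4.32 CPM and groups that overlapped. Pgf, the placental growth factor, was the scarcest member, with 13 to 63 reads per library and 0.345 to 3.18 CPM. Its 95% interval for Het DMSO against WT DMSO spanned 0.494-fold to 3.59-fold, so changes within that span were not resolved.

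Among the receptors, Flt1 had the narrowest intervals. Its values were 92.2, 99.6, 89.8 and 83.0 CPM in WT DMSO libraries 413, 425, 426 and 431. They were 74.9, 117, 93.9 and 92.2 CPM in Het DMSO libraries 409, 411, 420 and 429, and 113, 89.3, 83.3 and 80.1 CPM in Het Hit 2 libraries 410, 421, 422 and 430. The lowest and the highest library were both Het DMSO, and the groups overlapped. Het DMSO against WT DMSO gave a log2 fold change of 0.05 (SE 0.15, adjusted p 0.898 in edgeR), with an interval from 0.826-fold to 1.30-fold. With the compound the difference from Het DMSO was -0.05 (0.770-fold to 1.22-fold), a difference smaller than the spread between mice. The counts pool the transcripts of the membrane and soluble forms of VEGFR1.

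Kdr, which codes for the main signalling receptor of VEGFA, varied more between mice. WT DMSO libraries 413, 425, 426 and 431 had 12.1, 17.3, 15.0 and 7.16 CPM, and Het DMSO libraries 409, 411, 420 and 429 had 18.1, 19.8, 16.3 and 15.0 CPM. Het Hit 2 libraries 410, 421, 422 and 430 had 23.5, 13.4, 13.1 and 5.35 CPM, the highest and the lowest of all 12 among them. Het DMSO against WT DMSO gave 0.42 (SE 0.37, adjusted p 0.664 in edgeR, two-sided exact permutation p 0.114), with 2 of 4 Het DMSO libraries above every WT library. That value was 0.20 without library 431, 0.26 without libraries 409 and 411, and 0.84 without libraries 425 and 426. The compound comparison, Het Hit 2 against Het DMSO, gave -0.32 (SE 0.37, adjusted p 0.898 in edgeR), with -0.71 without library 410 and -0.08 without library 430. Flt4, which codes for the receptor of VEGFC, was at 7.42 ± 1.15, 8.64 ± 2.89 and 7.52 ± 1.19 CPM (SD, n = 4) in WT DMSO, Het DMSO and Het Hit 2. Its highest values, 11.7 and 10.5 CPM, were in libraries 411 and 409.

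**Figure D2:**
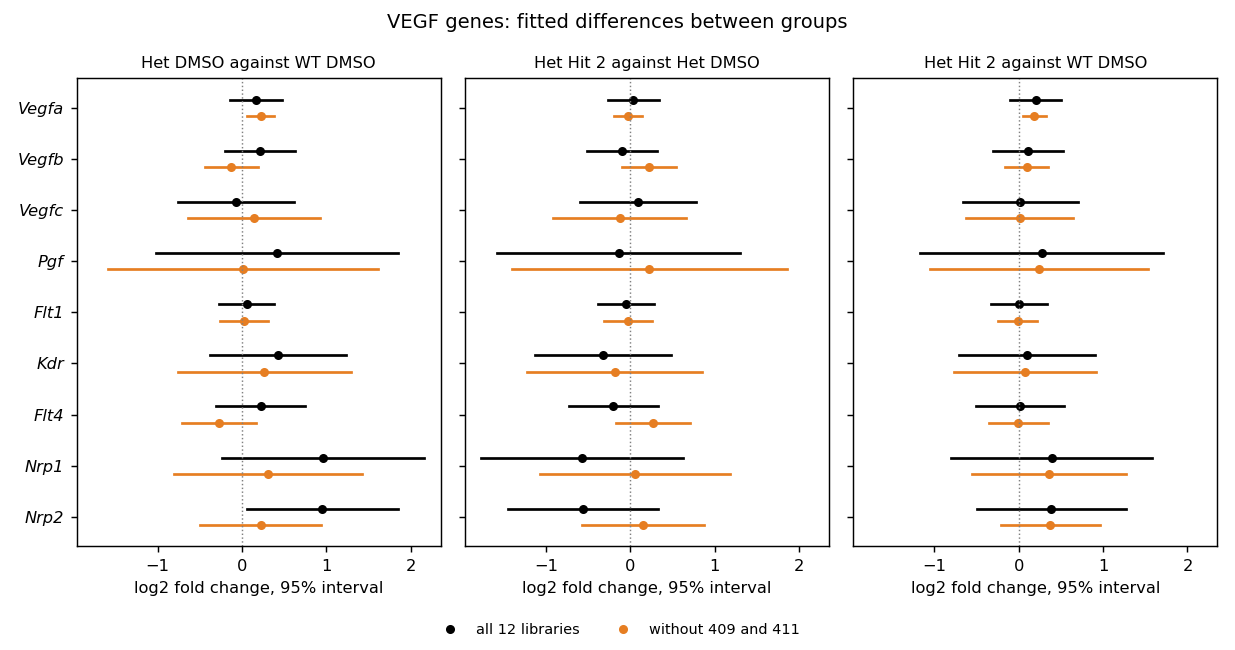
Fitted log2 fold change of each gene (horizontal axis, log2 scale) in the 3 comparisons, as a point with its 95% interval, with all 12 libraries in black and without libraries 409 and 411 in orange. With all libraries only the interval of Nrp2 in Het DMSO against WT DMSO lies above 0, and it crosses 0 once the 2 libraries are left out. The interval of Vegfa in that comparison then lies above 0 (0.06 to 0.38, edgeR adjusted p 0.590).

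The neuropilins had the largest fitted differences of the 9 genes in each comparison. Those with Het DMSO were smaller in size without library 411, and those of Het Hit 2 against WT DMSO were smaller without library 410. Nrp1, a co-receptor of VEGFR2 and of class 3 semaphorin receptors, stood at 11.7, 13.9, 7.98 and 4.39 CPM in WT DMSO libraries 413, 425, 426 and 431. Het DMSO libraries 409, 411, 420 and 429 had 8.70, 41.7, 10.8 and 12.9 CPM, and Het Hit 2 libraries 410, 421, 422 and 430 had 24.0, 8.25, 8.19 and 9.48 CPM. Libraries 411 and 410 stood above all others, while the remaining 6 Het libraries lay within the range of WT DMSO. Het DMSO against WT DMSO gave a log2 fold change of 0.96 (SE 0.55, adjusted p 0.616 in edgeR, two-sided exact permutation p 0.314), which fell to 0.19 without library 411. With the compound the difference from Het DMSO was -0.57 (SE 0.55, adjusted p 0.898 in edgeR), which became 0.18 without library 411 and -1.10 without library 410. Relative to WT DMSO, Het Hit 2 gave 0.39, and -0.15 without library 410.

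Nrp2, which binds VEGFC and semaphorins, followed the same libraries. Its values were 28.1, 24.7, 16.4 and 18.4 CPM in WT DMSO libraries 413, 425, 426 and 431, and 32.2, 85.9, 21.6 and 29.7 CPM in Het DMSO libraries 409, 411, 420 and 429. Het Hit 2 libraries 410, 421, 422 and 430 had 45.4, 19.0, 26.7 and 23.6 CPM. Library 411 was far above the rest and library 410 came second, and the groups overlapped. Nrp2 was the 1 member with an unadjusted p under 0.05, in Het DMSO against WT DMSO, at a fitted log2 difference of 0.95 (SE 0.41, p 0.0382 unadjusted and 0.616 adjusted in edgeR, two-sided exact permutation p 0.114). It was 0.37 without library 411 and 0.22 without libraries 409 and 411. Between the Het groups the difference was -0.56 (SE 0.41, adjusted p 0.898 in edgeR), 0.0039 without library 411 and -0.88 without library 410. Relative to WT DMSO, Nrp2 in Het Hit 2 gave 0.39, and 0.071 without library 410. Library 411 had the lowest granule and Purkinje cell markers and, like library 410, the highest markers of oligodendrocytes and of tissue outside the cerebellum; their part in the neuropilin values was not tested.

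**Figure D3:**
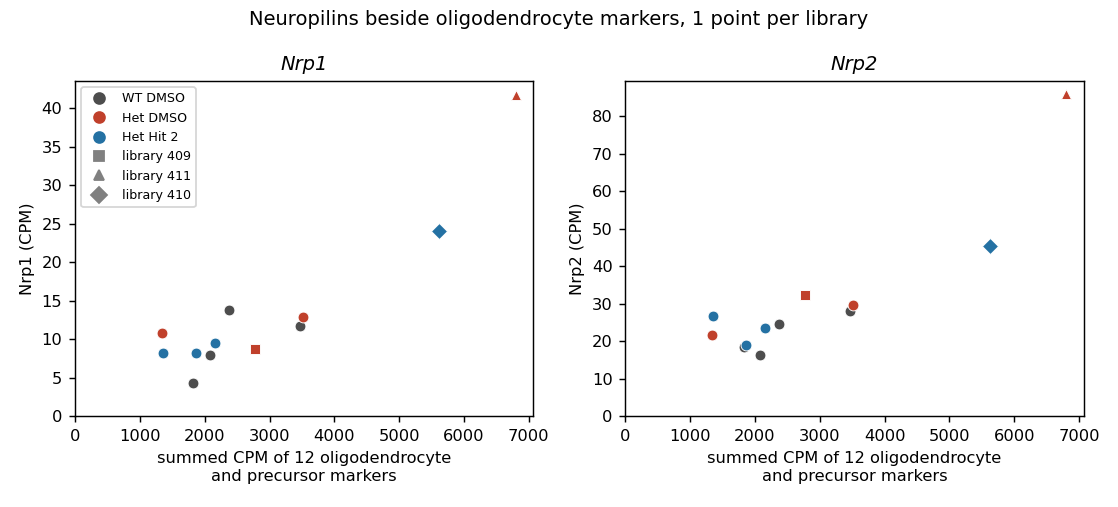
Nrp1 and Nrp2 (vertical axes, CPM) against the summed CPM of 12 markers of oligodendrocytes and their precursors (horizontal axes), with 1 point per library, coloured by group and with libraries 409, 411 and 410 marked by shape. Libraries 411 and 410, at 6797 and 5622 CPM of these markers, have the highest values of both neuropilins, and the other 10 libraries lie at 1338 to 3510 CPM.

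Levels of different genes were compared per kilobase of exon. The mean CPM per kb over 12 libraries was 25.2 for Vegfb, 17.2 for Vegfa, 6.84 for Flt1, 2.61 for Nrp2, 1.62 for Kdr, 1.38 for Nrp1, 1.20 for Vegfc, 0.955 for Flt4 and 0.463 for Pgf. Vegfb was above Vegfa, Vegfa above Flt1, Flt1 above Nrp2 and Flt4 above Pgf in 12 of 12 libraries. Nrp2 was above Kdr in 11 of 12 and Kdr above Nrp1 in 10 of 12. Nrp1, Vegfc and Flt4 were not separated by their spread, since Nrp1 was above Vegfc in 4 of 12 libraries and Vegfc above Flt4 in 7 of 12. The ranges over libraries overlapped for every pair of neighbours except Vegfa and Flt1. These lengths join all exons of a gene, so a gene with long rare exons is placed too low.

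**Figure D4:**
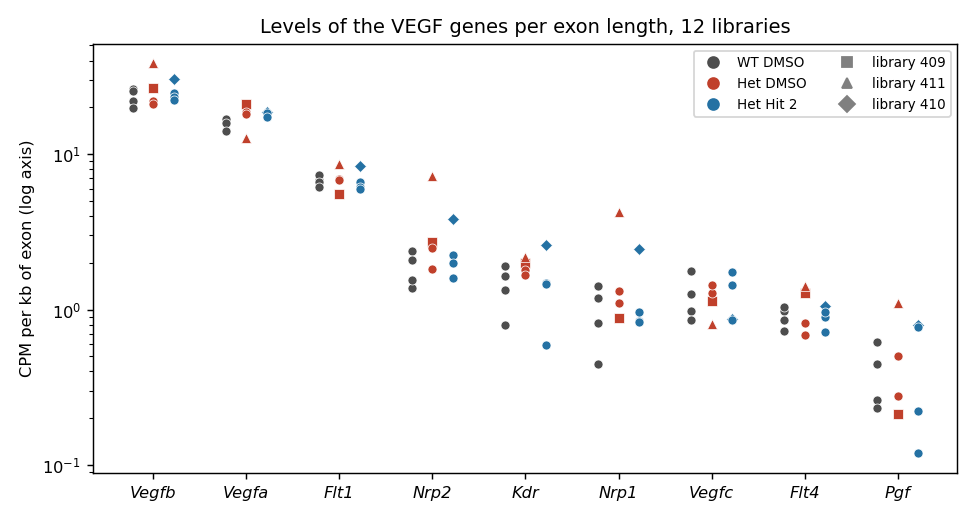
Level per kilobase of exon (vertical axis, CPM per kb, log scale) of the 9 genes in order of their mean over 12 libraries, with 1 point per library marked by group. Vegfb and Vegfa are the most abundant, at means of 25.2 and 17.2 CPM per kb, and Pgf the least, at 0.463.

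Endothelial transcripts were present in every library. All 12 endothelial markers had a median of at least 1 CPM, and their sum was 292 to 330 CPM in WT DMSO, 316 to 424 CPM in Het DMSO and 270 to 392 CPM in Het Hit 2. The highest sums were in libraries 411 and 410, which also had the highest Flt1. Pericyte and mural cell markers summed to 220 to 283, 258 to 317 and 244 to 351 CPM in the same order, and leptomeningeal markers to 102 to 156, 56.9 to 158 and 87.2 to 150 CPM. Choroid plexus markers, of which 8 of 12 reached a median of 1 CPM, spread widely within every group, from 95.7 to 1758, 107 to 3004 and 74.5 to 1673 CPM. Microglial markers were highest in libraries 411 and 410 (226 and 163 CPM, others 82.5 to 118 CPM). Their part in the values of the VEGF genes was not tested.

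The 9 genes were correlated with each other on log2 CPM over the 10 libraries other than 409 and 411. Flt1 and Kdr, the endothelial receptors of VEGFA, had a Pearson's r of 0.846 (permutation p 0.00255, adjusted over 36 pairs 0.0629) and a Spearman's rho of 0.927 (adjusted permutation p 0.0119). Without the 2 libraries farthest from the median r was 0.742, and over all 12 libraries 0.603. None of the 36 values of r passed an adjusted p of 0.05. Vegfa had an r of 0.350 with Flt1 over these libraries (permutation p 0.318, adjusted 0.526, rho 0.430 with permutation p 0.22, and r 0.120 without the 2 farthest) and -0.436 over all 12.

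The genes whose log2 CPM was most like that of a member were sought among 16594 genes over the same 10 libraries, as a description. For Vegfa they were Abcb10 (r = 0.972), Snhg10 (r = 0.952) and Gm15809 (r = 0.951), but over all 12 libraries r fell to 0.310, 0.343 and -0.178. For Flt1 they were Fgd5 (r = 0.961), Cpd (r = 0.957) and Vwa1 (r = 0.953), and over all 12 libraries r was 0.739, 0.919 and 0.373. For Kdr they were Arhgef12 (r = 0.970), C130074G19Rik (r = 0.964) and Zfp516 (r = 0.959), with 0.840, 0.896 and 0.750 over 12. For Nrp1 they were Grb14 (r = 0.973), Anxa5 (r = 0.972) and Kifc3 (r = 0.971), which were still at 0.949, 0.957 and 0.787 over 12 libraries.

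The wider pathway was described by 4 lists, and in edgeR with all libraries no gene of any list passed the threshold in any comparison. Counts of calls here are those of that fit. Of 13 further VEGF ligands and neuropilin partners, all 13 were tested and 0 called, with a median log2 fold change of 0.22 between Het DMSO and WT DMSO, which was 0.040 without library 411 and -0.11 without libraries 409 and 411. Of 28 genes of VEGF receptor signalling, 27 were tested and 0 called, with medians of 0.02, 0.11 and -0.037 in the same order. Of 18 hypoxia and HIF target genes, 18 were tested and 0 called, with medians of 0.25, 0.13 and 0.053; other fits called Car9. Of 20 genes of the endothelial response to VEGF, 18 were tested and 0 called, with medians of 0.23, 0.24 and 0.046. The medians of all genes were 0.05, 0.0070 and -0.0051. Between Het Hit 2 and Het DMSO the list medians with all libraries were -0.13, -0.12, -0.13 and -0.19, and without libraries 409 and 411 they were 0.12, -0.013, 0.021 and -0.044, beside -0.04 and 0.0094 for all genes. Between Het Hit 2 and WT DMSO they were 0.11, -0.0082, 0.05 and 0.03 with all libraries, beside 0.02 for all genes.

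Sema3a codes for a semaphorin that binds Nrp1 and is made by neurons. It stood at 25.3, 14.8, 14.5 and 17.2 CPM in WT DMSO libraries 413, 425, 426 and 431, at 13.2, 2.52, 17.3 and 14.9 CPM in Het DMSO libraries 409, 411, 420 and 429, and at 24.6, 26.6, 40.0 and 20.5 CPM in Het Hit 2 libraries 410, 421, 422 and 430. All Het Hit 2 libraries were above all Het DMSO libraries. The log2 fold change was 1.22 (SE 0.45, p 0.0180 unadjusted and 0.898 adjusted in edgeR), and 0.80 without libraries 409 and 411. In the same comparison 0.635% of all genes were higher without overlap. Against WT DMSO, Sema3a in Het Hit 2 gave 0.64 (SE 0.44, p 0.172 unadjusted in edgeR), and those groups overlapped.

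Nos3, the endothelial nitric oxide synthase that VEGFR2 signalling activates, ranged from 11.8 to 12.8 CPM in the WT DMSO libraries. Het DMSO libraries 409, 411, 420 and 429 had 20.9, 17.6, 13.4 and 14.7 CPM, all above WT DMSO (1.94% of all genes were higher without overlap), and Het Hit 2 libraries at most 15.9 CPM. Het DMSO against WT DMSO gave 0.45 (SE 0.17, p 0.0236 unadjusted and 0.616 adjusted in edgeR), and Het Hit 2 against Het DMSO gave -0.43 (SE 0.18, p 0.0315 unadjusted and 0.898 adjusted in edgeR). These comparisons share the Het DMSO libraries, and without libraries 409 and 411 they gave 0.20 and -0.19. Plxna1, a semaphorin receptor that pairs with neuropilins, was at 397 CPM in library 409 and 168 to 237 CPM in the other 11. Rcan1, a calcineurin regulator induced by VEGF, gave 0.39 and -0.30 in these comparisons (edgeR adjusted p 0.616 and 0.898), and -0.02 and 0.09 without libraries 409 and 411.

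Car9, a membrane carbonic anhydrase and a classical HIF target, had the smallest unadjusted p of the hypoxia list against WT DMSO. It stood at 5.14, 5.51, 6.38 and 4.61 CPM in WT DMSO libraries 413, 425, 426 and 431. Het DMSO libraries 409, 411, 420 and 429 had 1.45, 0.050, 0.622 and 0.876 CPM, and Het Hit 2 libraries 410, 421, 422 and 430 had 0.174, 0.741, 0.644 and 0.657 CPM. All 8 Het libraries were below all 4 WT libraries, with 103 to 244 reads in WT and 1 to 59 in Het. Among all genes, 2.45% were lower without overlap in Het DMSO and 3.42% in Het Hit 2. The log2 fold change was -2.80 for Het DMSO (SE 0.61, p 0.000637 unadjusted and 0.422 adjusted in edgeR) and -3.26 for Het Hit 2 (SE 0.63, p 0.000233 unadjusted and 0.387 adjusted in edgeR), both against the same WT libraries. Neither passed the threshold with all libraries in edgeR. DESeq2 gave adjusted p of 0.000507 and 9.92e-06, and edgeR without libraries 409 and 411 gave 0.0468 and 0.00281. Purkinje cell and Bergmann glia markers were also lower in all 8 Het libraries than in all 4 WT libraries, and their part in the values of Car9 was not tested.

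Car9 and Vegfa are both textbook HIF targets, and against WT DMSO their fitted values had opposite signs. Most genes of the hypoxia list had the sign of Vegfa. Of its 18 genes, 14 were higher in Het DMSO and 12 in Het Hit 2 than in WT DMSO. Of all genes, 55.8% and 55.7% were higher. Without libraries 409 and 411 it was 11 of 18 in each, beside 48.6% and 52.5% of all genes. Whether HIF sites bear on the opposite signs of Car9 and Vegfa was not tested. Sequence beyond the promoter windows was not searched, so any site there would have been missed in either gene. The promoter of Car9 is shown in a window of the same length as that of Vegfa. It lies at chr4:43506776-43507025 on the plus strand (RefSeq, GRCm38.p6), with the 1 match to ACGTG, which is read from the other strand as CACGT, in capitals.
Car9: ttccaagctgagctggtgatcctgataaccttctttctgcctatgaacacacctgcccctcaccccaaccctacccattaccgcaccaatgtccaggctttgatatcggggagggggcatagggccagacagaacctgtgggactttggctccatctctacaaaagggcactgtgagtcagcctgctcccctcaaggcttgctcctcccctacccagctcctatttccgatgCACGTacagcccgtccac
The HIF subunits themselves did not pass the threshold. Hif1a was at 124 ± 7.44, 92.8 ± 38.6 and 111 ± 7.56 CPM (SD, n = 4) in WT DMSO, Het DMSO and Het Hit 2, and Epas1, a subunit enriched in endothelium, at 158 ± 10.5, 197 ± 63.7 and 180 ± 40.6 CPM (SD, n = 4). Ldha, a glycolytic HIF target, gave -0.31 in Het Hit 2 against Het DMSO (unadjusted p 0.0451, edgeR adjusted p 0.898), and -0.17 without library 409, which had its highest value, 95.5 CPM. Without libraries 409 and 411, Car9 was the 1 gene of the hypoxia list called lower in each comparison with WT DMSO, where edgeR called 18 genes (Het DMSO) and 90 genes (Het Hit 2) of the 19071 tested.

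**Figure D5:**
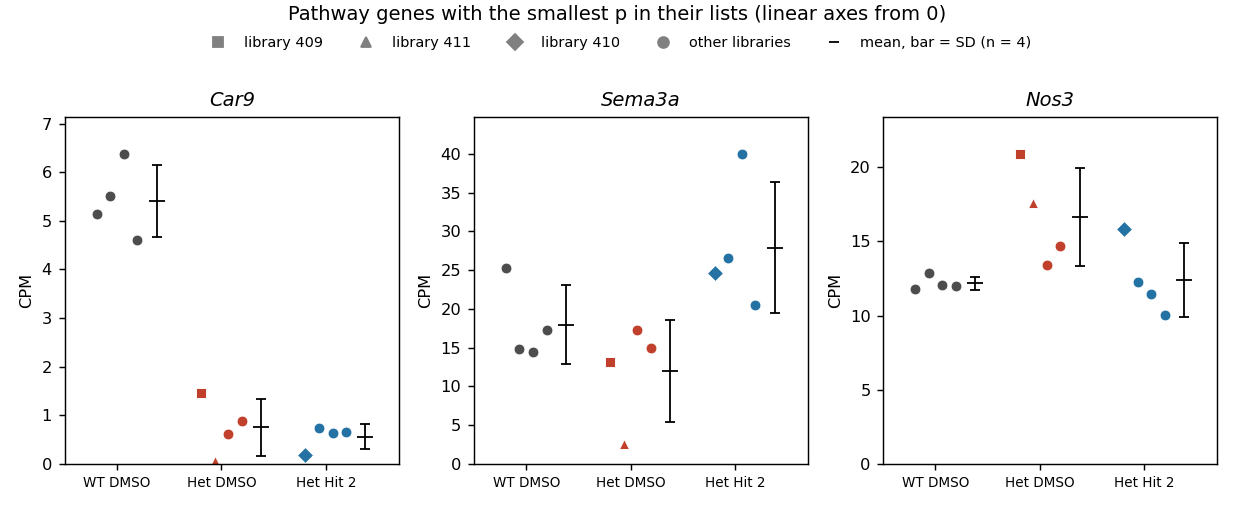
Car9, Sema3a and Nos3 in every library, in CPM on the vertical axes, with groups on the horizontal axis and the group mean and SD as a line and bar. Car9 lies at 4.61 to 6.38 CPM in WT DMSO and at 1.45 CPM or less in the 8 Het libraries.

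Hspb1, a heat shock protein phosphorylated downstream of VEGFR2, had 2.83 ± 0.198 CPM (SD, n = 4) in Het Hit 2 and 4.02 ± 1.40 CPM (SD, n = 4) in WT DMSO, a log2 fold change of -0.51 (SE 0.25, p 0.0586 unadjusted and 1.000 adjusted in edgeR). Without WT library 425, the highest at 6.10 CPM, it was -0.24, and without libraries 425 and 426 it was -0.18. Nr4a1, an immediate early gene that VEGF induces, had 23.6 ± 6.79 and 34.7 ± 9.96 CPM (SD, n = 4) in the same groups, a log2 fold change of -0.56 (SE 0.27, p 0.0575 unadjusted and 1.000 adjusted in edgeR), and -0.16 without libraries 425 and 426. Vegfd, the remaining ligand of VEGFR3, stood at 0.513, 0.358 and 0.708 CPM in WT DMSO, Het DMSO and Het Hit 2. None of these differences passed the threshold.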

How the data were processed

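RNA from 12 cerebella was sequenced as directional, ribosomal RNA-depleted libraries with paired reads of 100 bases, per the labels' protocols. The authors deposited raw counts of reads per gene in the layout of STAR. STAR 2.7.10a, FastQC 0.11.9 and the builds GRCm39 and mm39 are named in the submitters' processing notes; the annotation release is not given in the sources used here. Counts of the opposite strand were used, and the strand left out held 5.21% to 6.47% of gene reads. Reads outside genes stayed out of library sizes: unassigned (44.7% to 54.6%), multimapping (4.08% to 7.01%), unmapped (3.70% to 6.53%) and ambiguous (0.761% to 1.33%).

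Symbols (55141 of 55401 identifiers) and exon lengths came from GENCODE on GRCm38, and promoters from RefSeq on GRCm38.p6, so lengths may differ from the authors' annotation. The promoter table held all 9 members. Groups were taken from the labels. Tests used edgeR 4.0.16 in R 4.3.3, with filterByExpr, TMM scaling, all 12 libraries in 1 quasi-likelihood fit with 1 coefficient per group, two-sided, Benjamini-Hochberg adjustment over 19378 genes and a threshold of 0.05. CPM are on TMM-scaled library sizes, log2 CPM used a prior count of 2, and standard errors were derived from the F statistic. Single genes were also compared by an exact permutation test over 70 assignments of log2 CPM. Correlations used 100000 permutations. Alternatives were DESeq2 1.42.0, limma 3.58.1 with quality weights, RLE factors, no filter on low counts, unstranded counts, only the 2 groups compared, and leaving out libraries. Scripts were tested on simulated data.

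The members, lists and tests were chosen with earlier results of these data known. Named pathway genes were those with the smallest unadjusted p of each list in each comparison; the genes likest a member were the 3 with the highest r among those with a mean of at least 1 CPM. Vegfd, Hif1a and Epas1 were named outside this rule, after their values were seen.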

Additional observations from a re-analysis of the deposited data

Results flagged for a closer look

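Nrp1 in Het Hit 2 library 410 stood at 24.0 CPM, far above the next library of its group, 430, at 9.48 CPM. On the log2 CPM scale its gap to that library was 0.864 of the range of the group, above the critical value of Dixon's test at 95% for 4 samples. Over 27 such checks of the 9 VEGF genes in 3 groups, 1.35 would be marked by chance. On that scale 1 of the 27 passed. On the CPM scale 3 did: Nrp1 in library 410 at 0.918 of the range, and Het DMSO library 411 for Nrp1 (41.7 CPM) at 0.872 and for Nrp2 (85.9 CPM) at 0.835. Library 410 also had the second-highest markers of tissue outside the cerebellum, 131 CPM, and their part in the value was not tested.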

How the results depend on the processing

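The count of VEGF genes past the threshold was 0 in every comparison under each alternative run. No paired analysis was possible because animal numbers do not recur between groups. Of 794 refits of 40 fold changes of single genes, 67 had the other sign, in 22 of the 40, none of them past the threshold with either sign; the cause was not tested. Without libraries 409 and 411, Het DMSO against WT DMSO gave -0.13 for Vegfb, 0.14 for Vegfc, -0.27 for Flt4 and -0.016 for Rcan1. Het Hit 2 against Het DMSO then gave -0.033 for Vegfa, 0.22 for Vegfb, -0.13 for Vegfc, 0.22 for Pgf, 0.27 for Flt4, 0.059 for Nrp1, 0.15 for Nrp2 and 0.091 for Rcan1, and Het Hit 2 against WT DMSO -0.0097 for Flt1 and -0.0016 for Flt4. With limma and quality weights (0.0412 for library 409, 0.118 for 411), the first comparison gave -0.10 for Vegfb, 0.20 for Vegfc and -0.30 for Flt4. The second gave -0.024 for Vegfa, 0.15 for Vegfb, -0.0040 for Vegfc, 0.18 for Flt4 and 0.029 for Rcan1, and the third -0.48 for Pgf, -0.067 for Flt1, -0.25 for Kdr, -0.12 for Flt4 and -0.086 for Nrp1. In the third, Vegfc was -0.091 without libraries 425 and 426, Flt1 -0.0081 and Flt4 -0.00096 with DESeq2, Flt1 -0.0065 with RLE factors, and Flt1 -0.015 and Flt4 -0.0045 with no filter on low counts.

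Leaving out 1 library at a time, Het DMSO against WT DMSO ran from -0.22 to 0.16 for Vegfc, -0.23 to 0.72 for Pgf and -0.053 to 0.14 for Flt1. Het Hit 2 against Het DMSO ran from -0.12 to 0.13 for Vegfa, -0.22 to 0.079 for Vegfb, -0.14 to 0.21 for Vegfc, -0.50 to 0.48 for Pgf, -0.18 to 0.044 for Flt1, -1.10 to 0.18 for Nrp1 and -0.88 to 0.0039 for Nrp2. Het Hit 2 against WT DMSO ran from -0.0030 to 0.17 for Vegfb, -0.20 to 0.25 for Vegfc, -0.10 to 0.62 for Pgf, -0.12 to 0.049 for Flt1, -0.29 to 0.35 for Kdr, -0.074 to 0.11 for Flt4 and -0.15 to 0.63 for Nrp1. Vegfa against WT DMSO kept its sign in all 20 alternatives, from 0.06 to 0.31 for Het DMSO (adjusted p 0.330 to 0.921) and 0.14 to 0.26 for Het Hit 2 (adjusted p 0.223 to 1.000). Car9 against WT DMSO passed the threshold in 3 of 20 alternatives for Het DMSO and 5 of 20 for Het Hit 2, with limma adjusted p of 0.00170 and 0.000121, and for Het Hit 2 also 0.00763 with 2 groups only and 0.00809 without library 411.

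Over all genes, calls in Het DMSO against WT DMSO went from 1 to 39 with DESeq2, 98 with limma, 18 without libraries 409 and 411, 0 with 2 groups only or without libraries 425 and 426, and 0 to 9 leaving out 1 library. In Het Hit 2 against WT DMSO they went from 1 to 23, 221 and 90 in the first 3 of these, 54 with 2 groups only, 4 with no filter, 2 unstranded, 0 without libraries 425 and 426, and 0 to 14 leaving out 1 library. Het Hit 2 against Het DMSO had 0 in each, with 301 genes at an unadjusted p under 0.05.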
